A study of Arabidopsis thaliana with 3 samples.

Results

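The genes described here are 161 Arabidopsis loci whose hy5-1 to Ler ratio stood apart on a single array, array 2 of 3. They were chosen by their measured log2 ratios. A locus was taken where the ratio on array 2 exceeded the mean of arrays 1 and 3 by at least 0.8, a 1.74-fold difference, where arrays 1 and 3 lay within 0.7 of each other, and where both of these were under 0.4. The 161 loci are 2.23% of the 7234 named loci in the series. The difference between array 2 and the mean of arrays 1 and 3 is called the departure of array 2 below.

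Each array carried RNA of the mutant hy5-1 labelled with Cy5 (Hyper5) and RNA of Landsberg erecta (Ler), the reference genotype, labelled with Cy3. All plants were 3 weeks old, raised at 22 °C in a daily cycle of 16 h light with 8 h dark, and had then been exposed to 4 °C for 1 day. Cold treatment was therefore common to both genotypes, and no untreated plants were compared. The 3 arrays are labelled as biological replicates, the organ taken is not given in the sources used here, and no array had its dyes exchanged.

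A positive log2 ratio was read as higher in hy5-1 than in Ler. This direction is only likely, from the dye labels, since the sample titles name Ler before the mutant and the numerator of the ratio is not given in the sources used here. Under the opposite reading every sign below turns. Gene names rest on an order of the array features that was found from the values themselves. Across the named loci the ratios of arrays 1 and 3 correlated at r = 0.759, those of arrays 1 and 2 at 0.512 and those of arrays 2 and 3 at 0.504. Genes are not independent replicates, so these coefficients are descriptions.

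HY5 is a bZIP transcription factor that promotes light-dependent development and binds promoters with ACGT-containing elements. Its targets include genes of pigment synthesis, and it also acts in plants moved to low temperature. The genes of the present set have no common pathway by definition. Those with a gene symbol include sugar-transferring enzymes of small-molecule metabolism, cell wall enzymes, stress-related proteins, regulators and proteins of the chloroplast.

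Array 2 was the sample that defined the set, so its height there is a selection and not a result, and no test was applied to it. Over the 161 loci the median log2 ratio was 0.80 on array 2, with a range of -0.86 to 2.93. The same loci had medians of -0.34 on array 1 and -0.30 on array 3. Over all 7234 named loci the median was 0 on each array. The departure had a median of 1.01 among the members, against -0.005 over all named loci. In 9 members it was at least 2, in 74 it lay between 1 and 2, and in 78 it was under 1. Arrays 1 and 3 differed by a median of 0.24 in the members. Array 2 is 1 sample, so the departure of a gene has no replicate error of its own.

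**Figure D1:**
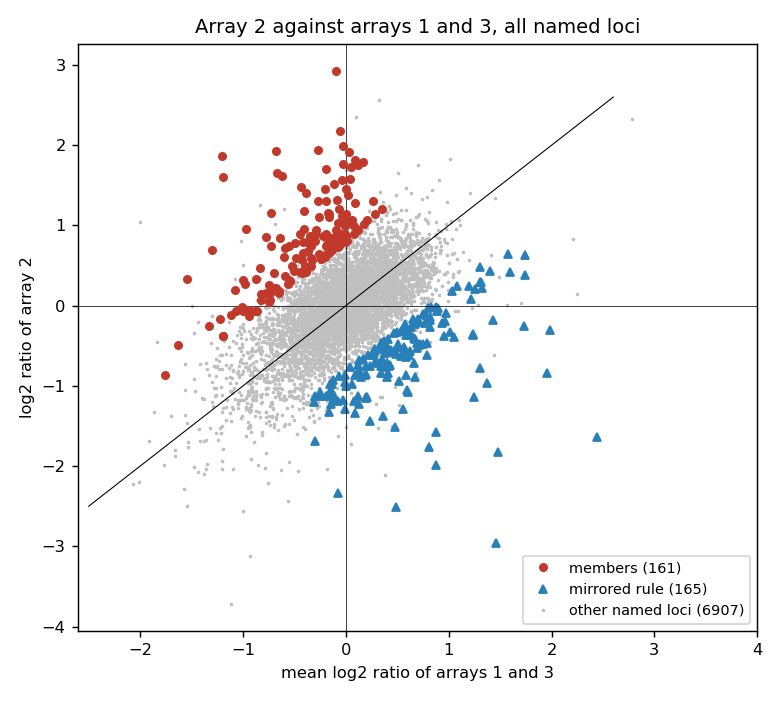
Log2 ratio on array 2 (vertical axis) against the mean log2 ratio of arrays 1 and 3 (horizontal axis) for the named loci, with the line of equality. The 161 members (red circles) lie above the line, and the 165 loci of the mirrored rule (blue triangles) lie below it.

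The working description of the set as genes rising only in replicate 2 held for 72 of the 161 members. In these 72 loci, 44.7%, arrays 1 and 3 both lay within 0.4 of 0 while array 2 was between 0.57 and 2.93. In another 17 loci arrays 1 and 3 were both at or under -0.4 and array 2 was between 0.41 and 1.93, so the genotype difference had opposite signs on different arrays. In 31 loci arrays 1 and 3 were both that low and array 2 lay between -0.38 and 0.37, close to equality of the genotypes. There the unusual array was the one that showed little difference. In 2 loci, AT5G17910 and AT5G35450, array 2 was itself under -0.4. The remaining 39 had 1 of arrays 1 and 3 at or under -0.4, with array 2 above 0.4 in 35 of them. In all, array 2 was above 0 in 147 members and below 0 in 14, and arrays 1 and 3 were both below 0 in 108.

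Low ratios on arrays 1 and 3 were more frequent in the set than among all genes, and the rule admits no ratio of 0.4 or more there. Both arrays were at or under -0.4 in 31.1% of members and in 10.9% of all named loci. The rule used these values, and nothing is read from the difference.

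The highest ratios on array 2 belonged to genes that were near equality on the other arrays. AT3G59340 had 2.93 on array 2, against -0.10 and -0.09 on arrays 1 and 3. AT1G30080 had 2.18 on array 2, against -0.03 and -0.08 on arrays 1 and 3. AT5G64690 had 1.99 on array 2, against 0.02 and -0.07 on arrays 1 and 3. In these loci the replicates that agreed differed by no more than 0.09, whereas array 2 stood more than 1.9 above them. The annotation used here gives no gene name for these loci.

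Among the named genes of this shape, ABR1 (AT5G64750) had the largest departure. ABR1 is an AP2/ERF transcription factor named as a repressor of abscisic acid responses. Its log2 ratio was 1.77 on array 2, against 0.11 and -0.16 on arrays 1 and 3. LAC9 (AT5G01050), a laccase by its listed synonym, had 1.58 on array 2, against 0.05 and 0.03 on arrays 1 and 3. UGT73C2 (AT2G36760), a glycosyltransferase that attaches sugars to small molecules, had 1.46 on array 2, against 0.09 and -0.08 on arrays 1 and 3. TBL21 (AT5G15890), of a plant family that includes acetyltransferases of cell wall polysaccharides, had 1.14 on array 2, against 0.01 and -0.01 on arrays 1 and 3. In all 4 genes arrays 1 and 3 lay within 0.16 of 0.

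Genes of primary metabolism and of the chloroplast, and a gene of an F-box protein, also had this shape, with smaller departures. SBPASE (AT3G55800), sedoheptulose-bisphosphatase of the Calvin-Benson cycle, had 0.79 on array 2, against -0.33 and 0.03 on arrays 1 and 3. CURT1C (AT1G52220), a protein of thylakoid membrane curvature by its listed synonym, had 0.90 on array 2, against 0.23 and -0.08 on arrays 1 and 3. PMEAMT (AT1G48600), a methyltransferase of phosphocholine synthesis, had 0.81 on array 2, against -0.06 and 0.08 on arrays 1 and 3. SKP2A (AT1G21410), an F-box protein, had 0.94 on array 2, against 0.38 and -0.14 on arrays 1 and 3. Among these genes SKP2A was thus the least even case. In SKP2A and CURT1C array 1 lay part of the way towards array 2, and in SBPASE array 3 did.

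Opposite signs were most pronounced in AT3G15356, which had the largest departure of the set. Its log2 ratio was 1.87 on array 2, against -1.10 and -1.30 on arrays 1 and 3, so array 2 differed from their mean by 3.07, or 8.40-fold. PXMT1 (AT1G66700), a methyltransferase named for the methylation of paraxanthine, had 1.60 on array 2, against -1.40 and -0.98 on arrays 1 and 3. XTH20 (AT5G48070), a xyloglucan endotransglucosylase/hydrolase that remodels the cell wall, had 0.69 on array 2, against -1.23 and -1.38 on arrays 1 and 3. The arrays therefore did not agree on which genotype had more of these transcripts.

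AT2G43590 and AT2G43620, which have no other named locus between them on chromosome 2, shared the crossing pattern. AT2G43590 had 1.93 on array 2, against -0.58 and -0.77 on arrays 1 and 3. AT2G43620 had 1.66 on array 2, against -0.88 and -0.45 on arrays 1 and 3. Each had a single feature, and whether either feature also binds the transcript of the other gene was not tested. AT2G44260, further along the same chromosome, had 1.62 on array 2, against -0.72 and -0.52 on arrays 1 and 3.

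Another set of members was lower in hy5-1 on arrays 1 and 3 and near equality on array 2. CYP71B23 (AT3G26210), a cytochrome P450, had 0.33 on array 2, against -1.84 and -1.24 on arrays 1 and 3. THI2.2 (AT5G36910), a thionin of the antimicrobial peptide type, had 0.33 on array 2, against -0.86 and -0.89 on arrays 1 and 3. NET1C (AT4G02710), of the NETWORKED family of actin-binding proteins, had 0.19 on array 2, against -1.29 and -0.87 on arrays 1 and 3. TRM19 (AT3G53540), named for a motif that recruits TON1, a protein of cortical microtubule arrays, had -0.38 on array 2, against -1.50 and -0.89 on arrays 1 and 3. In TRM19 all arrays were below 0, and array 2 was only the least low.

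Other members included regulators and a peroxidase. Prx37 (AT4G08770), a class III peroxidase, had 0.83 on array 2, against -0.34 on both array 1 and array 3. SIS (AT5G02020), listed as a salt-induced serine-rich protein, had 1.46 on array 2, against 0.03 and -0.43 on arrays 1 and 3. WRKY47 (AT4G01720), a WRKY transcription factor, had 0.94 on array 2, against -0.45 and 0.25 on arrays 1 and 3. For WRKY47 arrays 1 and 3 were as far apart as the rule allows, and array 3 lay closer to array 2 than to array 1. BGLU47 (AT4G21760), a beta-glucosidase, had 0.87 on array 2, against -0.29 and -0.15 on arrays 1 and 3. NPF5.14 (AT1G72120), of the NRT1/PTR transporter family by its listed synonym, had 0.58 on array 2, against -0.45 and -0.03 on arrays 1 and 3. ATIM (AT5G52910), listed with the synonym TIMELESS, had 0.43 on array 2, against -0.53 and -0.26 on arrays 1 and 3. B120 (AT4G21390) also had 0.43 on array 2, against -0.68 and -0.32 on arrays 1 and 3.

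**Figure D2:**
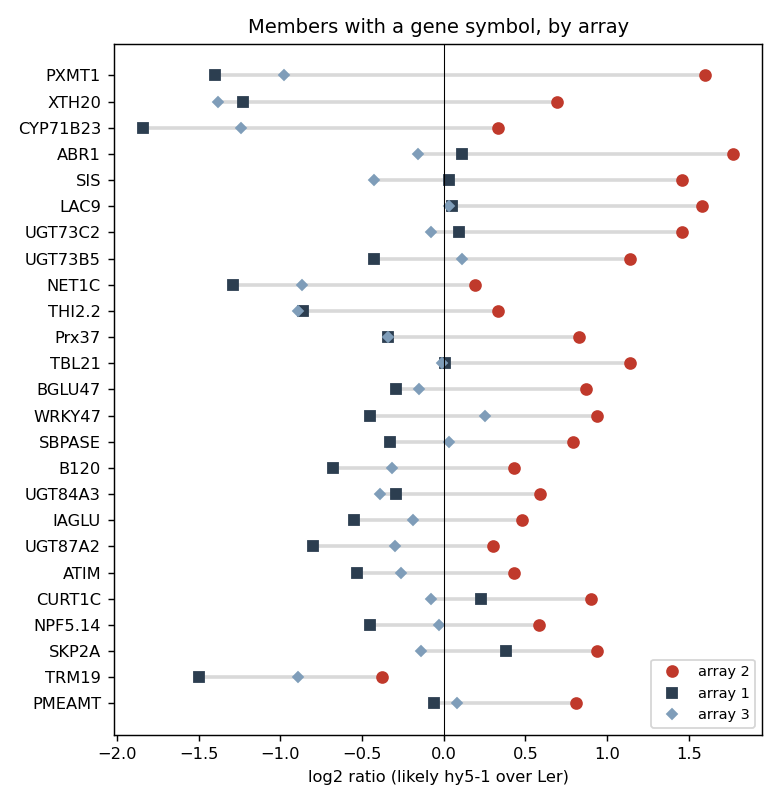
Log2 ratio (horizontal axis, likely hy5-1 over Ler) of the 22 members with a gene symbol. LAC9, CURT1C and NPF5.14, picked by their listed synonyms, are also shown, and rows are ordered by departure. Marks are array 2 (red circles), array 1 (dark squares) and array 3 (light diamonds). The circle lies to the right of both other symbols in every row, as the rule requires. Among the genes shown only TRM19 has it below 0.

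Glycosyltransferases were the family with the most members among those with symbols. UGT enzymes transfer sugars to hormones, flavonoids, phenolic acids and foreign compounds, and 5 of their 37 named loci met the rule, 13.5% against 2.23% of all named loci. The family was picked out after values were seen, and nothing is read from this share. Besides UGT73C2, UGT73B5 (AT2G15480) had 1.14 on array 2, against -0.43 and 0.11 on arrays 1 and 3. UGT84A3 (AT4G15490), of a subgroup that forms glucose esters of hydroxycinnamic acids, had 0.59 on array 2, against -0.29 and -0.39 on arrays 1 and 3. IAGLU (AT4G15550), which conjugates the auxin indole-3-acetic acid with glucose, had 0.48 on array 2, against -0.55 and -0.19 on arrays 1 and 3. UGT87A2 (AT2G30140) had 0.30 on array 2, against -0.80 and -0.30 on arrays 1 and 3.

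The family as a whole did not lean to a higher array 2. Of its 37 loci 17 had a departure above 0, the median departure was -0.06, and the range ran from -2.61 to 1.46. Close relatives differed. UGT73B3 had 1.18 on array 2, against 0.03 and 0.43 on arrays 1 and 3, and was kept out of the set by the value of array 3. UGT73B4, the neighbour of UGT73B5, had a departure of 0.43, and UGT73B1 one of -0.26. UGT73C1 had 0.36 and UGT73C6 had -0.60, beside 1.46 for UGT73C2. With array 3 alone as the comparison (without replicate 1) 3 of the 37 loci had a departure of 0.8 or more, against 6 over both arrays. With array 1 alone (without replicate 3) the count was also 6. These values count no independent samples, since every one comes from the same array 2.

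The NETWORKED family was the only family examined with 4 or more named loci whose median departure exceeded the threshold of 0.8. Of its 6 named loci 5 had a departure above 0, with a median of 0.95, although NET1C alone met the rule. NET1D (AT1G03080) had 0.00 on array 2, against -1.92 and -1.08 on arrays 1 and 3. NET1A (AT3G22790) had 0.17 on array 2, against -1.46 and -0.13 on arrays 1 and 3. NET1B (AT4G14760) had -0.20 on array 2, against -1.56 and -0.72 on arrays 1 and 3. In all 4 NET1 loci array 1 was the lowest and array 2 the highest. Arrays 1 and 3 of NET1A, NET1B and NET1D differed by more than 0.7, which the rule does not admit. NET2D had a departure of 0.38 and NET4B one of -0.30. The height of the family median depended on array 1. Without replicate 1 the median was 0.41, under the threshold, and 2 of the 6 loci had a departure of 0.8 or more, whereas without replicate 3 the median was 1.42 and 4 of 6 did.

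In each of the other families 1 locus met the rule. Among 12 named cytochrome P450 genes CYP71B23 had a departure of 1.87, and the next highest was CYP71B28 with 0.63. The neighbouring CYP71B19, CYP71B20, CYP71B24, CYP71B26, CYP71B34, CYP71B35 and CYP71B37 lay between -0.17 and 0.12. Of 6 XTH genes XTH20 had 2.00 and XTH32 lay at -1.56. Of 11 BGLU genes BGLU47 had 1.09 and the others lay between -0.10 and 0.29. Of 14 TBL genes TBL21 had 1.14, whereas the adjacent TBL19 (AT5G15900) had -1.16 and TBL45 -1.20. TBL19 had -0.63 on array 2, against 0.58 and 0.49 on arrays 1 and 3, so 2 adjacent genes of a family departed in opposite directions. Of 4 TRM genes all had a departure above 0, from 0.13 to 0.82. The families were formed from the symbols after the values had been seen, and carry no test.

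**Figure D3:**
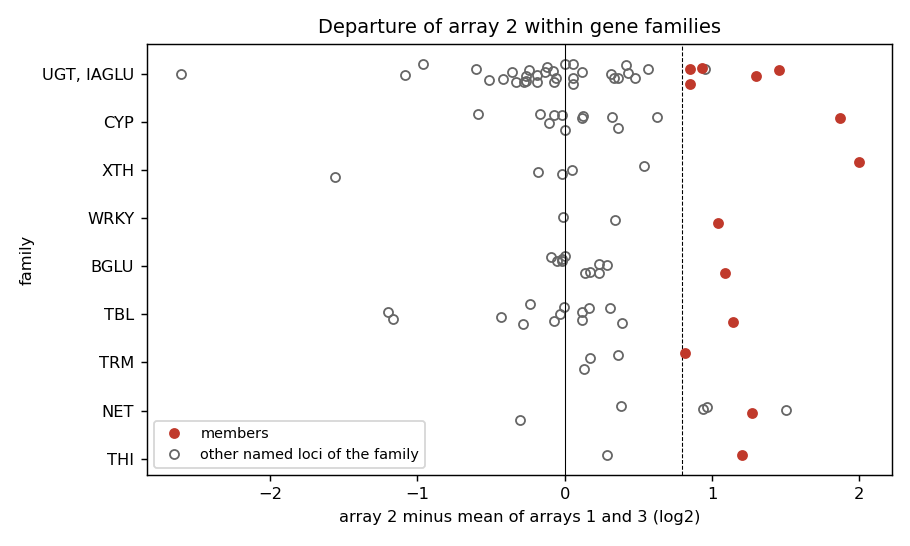
Departure of array 2 (horizontal axis, log2) for every named locus of 9 gene families, with members in red and other loci as open circles, and vertical lines at 0 and at the threshold of 0.8. Members stand alone at the right in most families, whereas 4 of 6 NET loci lie beyond the threshold (2 of 6 without replicate 1).

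Few genes of the stress and hormone lists could be read on this array. Of 112 genes in 11 lists (jasmonate and wounding, salicylate and defence, ethylene, abscisic acid and drought, cold, flavonoids, heat shock, the clock, sugar starvation and senescence, auxin, and nutrients), 14 were named on the array and 0 were members, where 2.23% of all named loci were. With so few genes named, nothing is read from the 0. In 6 of the 11 lists no gene was named. All 6 named genes of the flavonoid and anthocyanin list, pigment synthesis, had a departure below 0. Their median was -2.70 and their range -4.09 to -0.52. The mirrored rule took 4 of them, and 2.28% of all named loci, and nothing is read from this share. In these 4 genes arrays 1 and 3 were above 0 and array 2 below 0. DFR had -1.64 on array 2, against 2.61 and 2.28 on arrays 1 and 3. UGT78D1 and UGT78D2 were below 0 on every array. The 4 cold-response genes had departures from -0.56 to 0.37. The clock gene GI, with a departure of 0.62, came closest to the threshold among these 14 genes. Markers of leaf, flower, root, seed, epidermis, guard cell and vascular tissue numbered 37, of which 5 were named. XTH20, which stood in the root list, was the only member among them, and the other named root marker, EXPA18, had a departure of -0.04. Ratios give no level, so the tissue in the sample could not be checked from markers.

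The test of the genotype difference was the limma fit of the mean log2 ratio over the 3 arrays, with p-values adjusted by the Benjamini-Hochberg method over all named loci. It called 1242 loci, or 17.2% of all tested, 7.88% higher and 9.29% lower in hy5-1. Since hy5-1 carried Cy5 on every array, a dye effect that repeats for a gene cannot be told apart from a genotype difference in these calls. The same holds for the calls among members. Of the 161 members 3 passed, 0 of them higher and 3 lower. At an unadjusted limma p under 0.05 there were 3 members higher and 14 lower, 10.6% of the set, against 36.3% of all loci. A gene whose arrays disagree has a large SD, so the rule works against a call, and the low count is not a finding.

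The 3 members past the threshold were lower in hy5-1 on every array. AT5G17910 had -0.86 on array 2, against -1.89 and -1.63 on arrays 1 and 3, a mean of -1.46 ± 0.54 (SD, n = 3; limma adjusted p = 0.0219). AT5G35450 had -0.49 on array 2, against -1.73 and -1.53 on arrays 1 and 3, with a mean of -1.25 ± 0.67 (SD, n = 3; limma adjusted p = 0.0368). AT2G25730 had -0.38 on array 2, against -1.28 and -1.10 on arrays 1 and 3, with a mean of -0.92 ± 0.48 (SD, n = 3; limma adjusted p = 0.038). With the arrays given equal median absolute deviations AT2G25730 missed the threshold (limma adjusted p = 0.0505), and the other two members passed. TRM19 was next, at -0.92 ± 0.56 (SD, n = 3; limma adjusted p = 0.0503). Without replicate 2 limma called 45 members, all lower, or 27.95% of the set, where it called 10.02% of all loci lower. Arrays 1 and 3 were used in the choice of members, so this count also describes the rule. Without replicate 1 or without replicate 3, limma called 0 loci, members included. An unadjusted limma p under 0.05 was found in 4 and 2 of the 161 members, against 1613 and 1585 of all 7234 loci. The rule sets array 2 apart from the array that remains, so these low counts also describe the rule.

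The largest means above 0 did not pass. AT3G59340 had a mean of 0.91 ± 1.75 (SD, n = 3; limma adjusted p = 0.373), and only its array 2 was above 0. AT5G21940 had 1.79 on array 2, against 0.37 and -0.04 on arrays 1 and 3, and a mean of 0.71 ± 0.96 (SD, n = 3; limma adjusted p = 0.23). In 11 members all arrays were above 0, and in 14 all were below.

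For a feature that met the rule by itself, another feature of the same locus was a further measure. The mean over all features of a locus chose the members, so in members the other features also entered the choice. Of the 161 members 158 had a single named feature. Among all loci with several features, 5 had at least 1 feature that met the rule by itself, 6 features in all. The other 6 features of these loci were those that did not meet the rule. They had departures from 0.10 to 0.65, with a median of 0.23, all above 0. That they lay under the threshold follows largely from this sorting, and nothing is read from it. AT3G32030 entered the set through 1 feature, which had 2.02 on array 2, against -0.07 and 0.25 on arrays 1 and 3. Its other feature had 0.02 on array 2, against -0.14 and -0.02 on arrays 1 and 3. The mean that made it a member thus described neither feature.

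In AT1G62600, 2 of 3 features met the rule by themselves. The locus had a feature with 1.55 on array 2, against 0.22 and 0.02 on arrays 1 and 3. Another had 0.80 on array 2, against -0.78 and -0.88 on arrays 1 and 3. Its remaining feature had 0.06 on array 2, against -0.21 and -0.14 on arrays 1 and 3. AT2G38240 had 0.67 on array 2, against -0.31 and -0.34 on arrays 1 and 3, with its first feature, and 0.64 on array 2, against -0.07 and 0.05 on arrays 1 and 3, with its other. For AT2G38240 both features were higher on array 2, by 1.00 and 0.65, and only the first met the rule by itself. Over 132 loci with 2 or 3 features the departures of 2 features of a locus correlated at r = 0.427, a description across genes that share the same 3 arrays.

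The features of the members lay in all parts of the array. With the grid columns divided into 3 strips of equal width, the left strip held 66 of them, 2.67% of its named features, the middle strip 41, 1.62%, and the right strip 58, 2.38%. With unnamed features included, 2.15% of the left, 1.51% of the middle and 1.67% of the right strip met the rule. The mirrored rule ran differently, at 1.02%, 2.11% and 1.53%. The shares of both patterns thus differed between these strips, and the part of position on the array was not tested. The nearest spots around a member did not share its departure, with a median of 0.02 among members and 0.0025 over all named features. Of these neighbouring spots 2.51% had a departure of 0.8 or more, against 2.33% around all named features. After each array was corrected for its local median over 15 by 15 spots, 157 loci met the rule, 149 of them members.

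**Figure D4:**
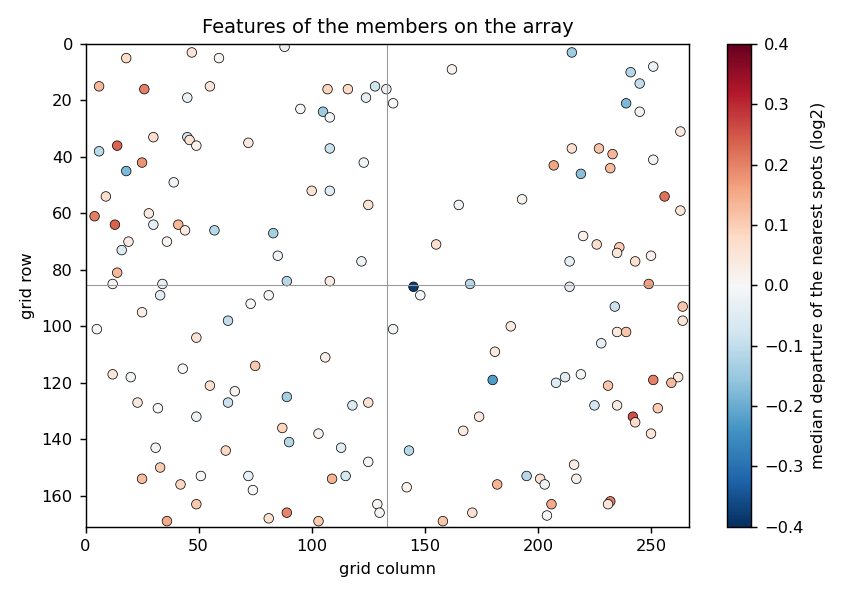
Position of each member feature on the array grid (column on the horizontal, row on the vertical axis), coloured by the median departure of its nearest spots. Member features lie in every quadrant and are fewest in the middle strip of columns, and their surroundings lie between -0.38 and 0.26.

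Members were found on all chromosomes, from 1.81% of named loci on chromosome 5 and 1.88% on chromosome 3 to 3.24% on chromosome 2. Chromosomes 1 and 4 held 2.17% and 2.42%. Of the 161 loci 14 lay within 20000 bp of another member, forming 7 pairs, against 25 of the 165 loci of the mirrored rule in 13 pairs. Besides AT2G43590 with AT2G43620, pairs with no named locus between them were AT2G41170 with AT2G41190 and AT4G35110 with AT4G35160. AT2G41170 had 0.61 on array 2, against 0.00 and -0.41 on arrays 1 and 3. AT2G41190 had 0.75 on array 2, against 0.11 and -0.49 on arrays 1 and 3, so the profile of this pair was alike. The 454 other named loci within that distance of a member had a median departure of 0.005, and 50.4% of them were above 0, against 48.6% of all named loci. All 161 members were annotated as protein coding, their median gene length was 2221 bp, against 2284 bp over all named loci, and 13.7% of them had a gene symbol, against 13.1% of all.

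The mirrored rule, with array 2 lower by the same limits, held 165 loci, so the 2 rules took about as many named loci. Without the limits on arrays 1 and 3, a departure of -0.8 or less occurred in 249 loci, against 213 with 0.8 or more. Mirrored loci had a median of -0.62 on array 2, against 0.54 and 0.51 on arrays 1 and 3. In 53 of them arrays 1 and 3 were both within 0.4 of 0, compared with 72 of the members. Over all features array 2 had the smallest scaled median absolute deviation, 0.133, against 0.208 and 0.193 on arrays 1 and 3, and the largest SD, 0.385, against 0.377 and 0.321.

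The threshold cut a continuous range. Just inside it, AT5G20610 had a departure of 0.805 and PMEAMT and AT3G56270 had 0.80. Just outside, AT1G29700, AT5G57500 and AT4G16000 had 0.795 each. A departure of 0.8 or more occurred in 213 loci, of which 38 were left out because arrays 1 and 3 were more than 0.7 apart and 13 because 1 of them reached 0.4.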

How the data were processed

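The deposited log2 ratios of 45220 features on 3 two-colour arrays were used as the authors gave them. How they were normalised and which channel is the numerator is not given in the sources used here, and base 2 was taken from their range of -4.03 to 5.09. Values appeared centred. The 7440 named features were joined to value rows by a feature order found from the values. For 7 loci with 10 or more features, the variance within loci over the total was 0.0345 in this order and 0.978 with row numbers as given. The order was found from these same values, so the ratio is not an independent check of the gene names. Features were averaged per locus and named through the platform annotation and RefSeq (TAIR10.1).

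The mean log2 ratio was tested against 0 with limma (version 3.58.1, R 4.3.3), with Benjamini-Hochberg adjustment over 7234 loci and a threshold of 0.05. The procedure was tested on simulated data. With 3 arrays, their number limits the precision. P-values set the mean log2 ratio against the spread between these samples, which limma moderates with the spread over all loci.

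Members, lists and rules were chosen with earlier results of these data known. Genes named are the 10 largest departures, listed genes, members with several features, the loci next to the threshold and, chosen after values were seen, members with symbols, their families, members past the threshold and pairs of neighbours. LAC9, CURT1C and NPF5.14 were added by their listed synonyms. Descriptions and promoter sequences were not used here, so the word classes and motifs planned were not run. A further locus meeting the rule is not reported here.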

Additional observations from a re-analysis of the deposited data

Results flagged for a closer look

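Signal outside the named loci was noted because these features enter no comparison between genes. Of the 37780 features not named here, 640 met the same rule, 1.69% of them, against 164 or 2.20% of the named features. The mirrored rule took 532 unnamed features, 1.41%, against 170 or 2.28% of the named ones. Control spots among the unnamed features were not removed.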

How the results depend on the processing

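The 161 loci became 270 when the arrays were given equal median absolute deviations (148 of them members), 83 with a departure of 1.0 or more, and 209 to 282 with replicate 1 or replicate 3 left out. With row numbers as given 117 loci met the rule, and only 2 were members, so the names depend on the feature order. The median departure of 1.01 became 1.30 among loci at 1.0 or more and ran from 1.04 to 1.12 with replicate 1 or replicate 3 left out. Calls over all loci numbered 391 with scaled arrays and 0 to 1380 with a replicate left out, and calls among members 0 to 45. The cause was not tested. Centring, robust moderation and the fit per feature kept each count they apply to within 1.5 times. Of 65 loci named with a departure of their own, 46 of them members, only EXPA18 changed sign, without replicate 3 and not with scaling, centring or replicate 1 left out, at -0.09 to 0.02. With equal median absolute deviations 37 of the 65 departures moved by more than the SD of arrays 1 and 3, and 13 of the 161 members were under 0.8, among them AT5G17910, AT2G25730, AT5G35450 and TRM19 at 0.41, 0.54, 0.78 and 0.54. The local correction and the family departures with a replicate left out were added after seeing the data. No paired analysis was possible because the arrays form 1 group with no second group to block against, and the ratio tested by limma is already a difference within each array. Signal over background is unknown, since the files give ratios only.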
